A study of Mus musculus with 7 samples.

Results

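CD4 and CD8 T cells were compared as sorted from the mouse spleen, with no culture or stimulation. The cells were chosen by their library: all cells of the CD4 library against all cells of the CD8 library, with the library of the parent TCRαβ+ gate (TCRab) as a check within 1 library. Cell barcodes with 200 or more genes detected and at most 10% of UMIs (unique molecular identifiers, counted transcripts) from mitochondrial genes were kept. This left 5035 of 5069 barcodes in the CD4 library, 4655 of 4670 in the CD8 library and 4294 of 4334 in the TCRab library, or 13984 of the 28101 cells kept in the series. All 3 libraries came from 8-week-old C57BL/6 males, with no allele or treatment named, and were made with the Chromium 3′ kit v2. The gates were CD3+, NK1.1-, TCRαβ+ and TCRγδ-, joined by CD4+CD8- for the CD4 library and by CD4-CD8+ for the CD8 library, and by neither coreceptor for TCRab. Each gate gave 1 library, and the number of mice behind it is not given in the sources used here. Differences between the libraries therefore have no replicate check, no test was made, and every interval below covers counting error only.

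CD4 and CD8 are coreceptors that bind MHC class II and MHC class I molecules beside the T cell receptor. CD4 T cells mostly help other immune cells and include the regulatory T cells, whereas CD8 T cells become cytotoxic. The split is set in the thymus, where the transcription factor Zbtb7b (ThPOK) directs the CD4 fate and Runx3 directs the CD8 fate and represses Cd4 and Zbtb7b.

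The kept cells held 21757994 UMIs in the CD4 library, 24115584 in CD8 and 18373324 in TCRab, with medians of 4087, 4899 and 3987 UMIs per cell. The mitochondrial limit left out 33 of the 34 barcodes removed from CD4, where the kept cells reached 9.96% and the nearest one left out had 10.4%. The sparsest kept cell of CD4 had 215 genes, and the nearest left out for its genes had 188. CD4 and CD8 shared 36 barcode sequences, CD4 and TCRab 19, and CD8 and TCRab 30. No doublets were removed. The T cell marker Cd3d was at 1158 CPM (UMI counts scaled to a common library total) in CD4, 1189 in CD8 and 1241 in TCRab, and had a UMI in 98.2%, 99.0% and 98.6% of cells. Of the B cell markers, Cd79a had 16 UMIs in CD4, 10 in CD8 and 22 in TCRab, and Ms4a1 had 1, 0 and 19. Red cell globin genes were present in all 3, at 2818, 2557 and 2137 CPM summed over 4 of them (Hbb-bs, Hbb-bt, Hba-a1, Hba-a2), with 94.0% to 96.9% of these UMIs in 9 to 15 cells of a library.

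A gene was compared when it reached 20 CPM in at least 1 of the libraries and was counted as apart at a difference of 2-fold or more. A gene under 20 CPM in 1 library was compared through the other alone, which fixed its direction, here and in every list below. Of 3809 genes compared, 56 (1.47%) were higher in CD4 and 59 (1.55%) higher in CD8, 3.02% in all. The median log2 ratio (CPM + 1, CD4 minus CD8) over the compared genes was 0.13. When the libraries were scaled by the median ratio in place of total UMIs, 43 genes were higher in CD4 and 71 in CD8. The median log2 ratio over the genes compared was then -0.0062. With totals without ribosomal protein and mitochondrial genes it was -0.0066. Shares of log2 ratios above 0 given below used total UMIs and depend on this scaling. The widest folds towards CD4 were those of Cd4, the myeloid genes S100a9 and S100a8, the surface antigen gene Ly6c1, the costimulatory ligand gene Cd40lg and Zbtb7b. Those towards CD8 included Cd8a, Gzma, Cd8b1, Ly6c2 and Nkg7. The plot of CPM in the sorted libraries shows them away from the diagonal.

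**Figure D1:**
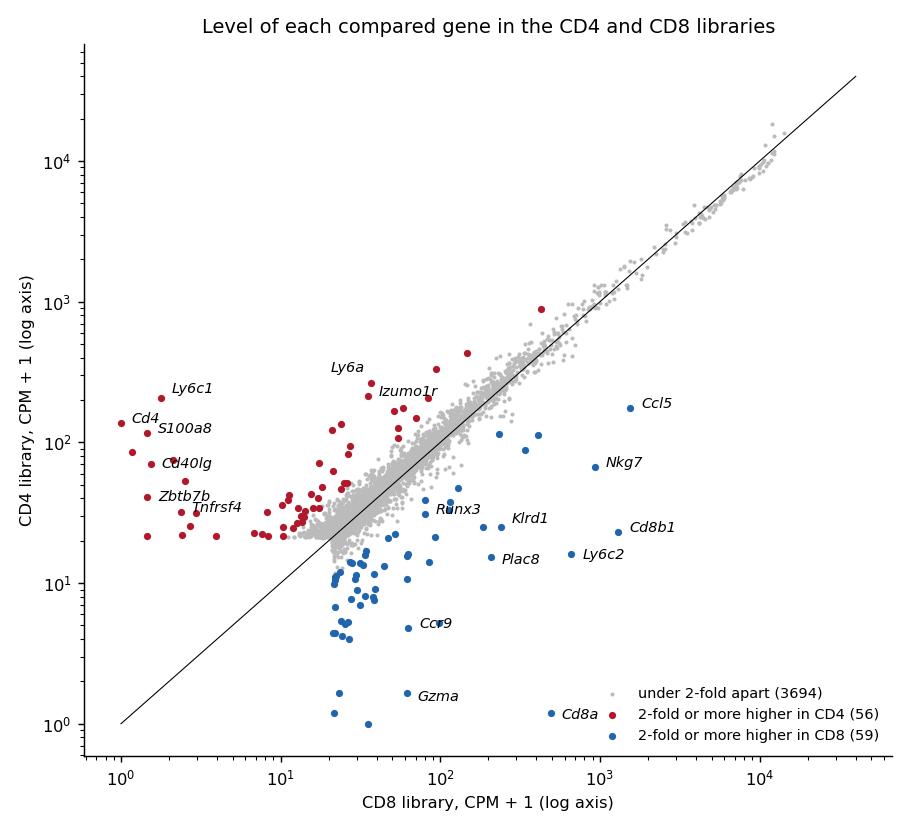
Level of each of the 3809 compared genes in the CD8 library (x axis, CPM + 1, log axis) and the CD4 library (y axis, CPM + 1, log axis), 1 point per gene, with the 56 genes higher in CD4 in red and the 59 higher in CD8 in blue. Most points lie along the line of equal levels, and Cd4, Ly6c1 and Cd40lg stand at the upper left against Cd8a, Cd8b1 and Ly6c2 at the lower right.

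The coreceptor transcripts followed the sort gates. Cd4 (chromosome 6, 124864692 to 124888221, minus strand, GRCm38) had 2969 UMIs in the CD4 library (136 CPM) and 0 in the CD8 library, where a floor of 3 UMIs makes the CD4 level at least 1097-fold higher and the exact interval of the ratio starts at 892. A Cd4 UMI was seen in 42.5% of CD4 cells (exact 95% binomial interval 41.2% to 43.9%) and in 0 of 4655 CD8 cells, which allows a share of up to 0.0644% (3 counts of the total; the exact interval ends at 0.0792%). Most of the sorted CD4 cells thus showed no Cd4 UMI at this depth, and the share with one was 18.3% once each cell was thinned to 1500 UMIs. Cd8a (chromosome 6, 71373427 to 71379173, plus strand) had 4 UMIs in CD4 and 11815 in CD8, or 0.184 and 489.9 CPM. Cd8b1 (chromosome 6, 71322788 to 71337494, plus strand), the neighbouring gene for the β chain, had 484 and 31373 UMIs, or 22.2 and 1301 CPM. The CD8 level of Cd8b1 was 58.5-fold the CD4 level (interval 53.5 to 64.1), and that of Cd8a 2665-fold (1041 to 9783). At least 1 of the pair was seen in 99.3% of CD8 cells.

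Cd8b1 transcripts in the CD4 library came almost without Cd8a transcripts. The number of Cd8a UMIs per Cd8b1 UMI was 0.377 in CD8 (interval 0.369 to 0.385) and 0.359 in TCRab (0.345 to 0.373), but 0.00826 in CD4 (0.00224 to 0.0213). At the ratio of the CD8 library, 484 Cd8b1 UMIs would go with 182 Cd8a UMIs, where 4 were counted. The Cd8b1 UMIs were spread over 418 CD4 cells, with at most 4 in any cell. The 422 CD4 cells with a Cd8a or Cd8b1 UMI had Zbtb7b at 43.7 CPM and Cd4 at 136 CPM, against 39.3 and 136 CPM in the 4613 without one. Nkg7 was at 29.3 CPM in these 422 cells against 69.1 CPM in the 4613. The top 1% of CD4 cells held 61.6% of its UMIs, so these levels rest on few cells. The source of the Cd8b1 UMIs was not tested. The 2 naive double-negative libraries of the series, sorted as CD4-CD8-, had 263 and 279 Cd8b1 UMIs and 17 Cd8a UMIs each, a ratio of 0.0646 (0.0371 to 0.106) and 0.0609 (0.035 to 0.0993).

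Of the 21 genes listed for coreceptors and lineage choice, 17 were compared, 3 were higher in CD4 (Cd4, Zbtb7b, Runx1) and 3 higher in CD8 (Cd8a, Cd8b1, Runx3), with a median log2 ratio of 0.28. Cd4, Cd8a and Cd8b1 encode the proteins used for the sort, which set their direction. With them included, 35.3% of the compared members were apart, beside 3.02% of all compared genes. Zbtb7b and Runx1 were under 20 CPM in CD8 and were compared through their CD4 level alone, which fixed their direction. Zbtb7b (chromosome 3, 89377644 to 89394776, minus strand) had 863 UMIs in CD4 and 11 in CD8, or 39.7 and 0.456 CPM, an 87.0-fold difference (48.4 to 175). A Zbtb7b UMI was found in 15.5% of CD4 cells and 0.236% of CD8 cells, and in 6.02% and 0.129% after thinning. Runx3 (chromosome 4, 135120652 to 135177990, plus strand) was at 29.7 CPM in CD4 and 79.1 CPM in CD8, 2.66-fold higher in CD8 (2.43 to 2.91). Zbtb7b was thus nearly absent from the CD8 counts, while Runx3 was seen in 11.5% of CD4 cells and 31.9% of CD8 cells. Runx1, another member of the Runx family, went the other way, at 28.9 CPM in CD4 and 12.5 in CD8. Their shared partner Cbfb was at 41.5 and 41.1 CPM. Gata3, a factor of CD4 development and helper function, was 1.86-fold higher in CD4 (1.68 to 2.07) and missed the 2-fold limit. Tcf7, Lef1, Bcl11b, Ets1, Satb1 and Ikzf1, factors of the whole T lineage, had log2 ratios between 0.01 and 0.61.

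A few helper genes were far higher in CD4, and most of those compared were under 2-fold apart. Of the 22 listed, 13 were compared, and 4 were higher in CD4 and 0 in CD8. These made up 30.8% of the compared members, beside 3.02% apart among all compared genes. Cd40lg and Tnfrsf4 were under 20 CPM in CD8 and were compared through their CD4 level alone, which fixed their direction. Log2 ratios were above 0 for 84.6% of the compared members, beside 71.6% of all compared genes. With 13 members, the gap between these shares is not read as a lean of the list. The median log2 ratio was 0.55, beside 0.13 over all. Cd40lg (chromosome X, 57212143 to 57224042, plus strand), the ligand by which helper cells license B cells and dendritic cells, had 1503 UMIs in CD4 and 13 in CD8, or 69.1 and 0.539 CPM. The difference was 128-fold (74.7 to 241), with a UMI in 24.5% of CD4 cells and 0.279% of CD8 cells. Tnfrsf4 (OX40), a costimulatory receptor, was at 31.2 and 1.37 CPM, 22.8-fold apart (16.1 to 33.4), and 45.4% of its CD4 UMIs were in the top 1% of cells. Cd28, the main costimulatory receptor, was at 206 and 82.5 CPM, and Cd5, which dampens receptor signals, at 127 and 53.4 CPM. These are differences of 2.49-fold (2.36 to 2.63) and 2.37-fold (2.22 to 2.54) in genes that both lineages expressed. Icos was at 34.7 and 18.7 CPM and Il6ra, the interleukin 6 receptor chain, at 79.8 and 48.4 CPM, both under 2-fold.

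Of the regulatory T cell genes, Foxp3 was seen in few CD4 cells and Izumo1r in many more. Only 4 of the 16 listed reached 20 CPM, and the others were not compared. Izumo1r and Capg were higher in CD4, or 50% of the compared members, beside 3.02% apart among all compared genes. The median log2 ratio of the 4 was 1.51, beside 0.13 over all. Capg was under 20 CPM in CD8 and was compared through its CD4 level alone, which fixed its direction. Foxp3, the factor that defines regulatory T cells, had 215 UMIs in CD4 and 3 in CD8, a ratio of 79.4 (26.8 to 388), in 2.92% and 0.0644% of cells. Il2ra had 123 and 5 UMIs and Ctla4 262 and 39, both below 20 CPM. Izumo1r (folate receptor 4) was at 214 CPM in CD4 and 34.0 in CD8, 6.30-fold apart (5.85 to 6.79). It was seen in 36.4% of CD4 cells, so most cells with it had no Foxp3 UMI at this depth. Capg, an actin-capping protein, was at 70.9 and 16.3 CPM.

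Most compared genes of the cytotoxic and memory CD8 list were higher in CD8. Of 28 listed, 13 reached 20 CPM, and 12 of these were higher in CD8 and 0 in CD4. The list had a median log2 ratio of -2.88. The remaining gene, the chemokine receptor Cxcr3, was at 31.6 CPM in CD4 and 41.1 in CD8. Over all compared genes, 1.55% were higher in CD8. Ly6c2, Gzma, Gzmm, Cd160, Cst7, Eomes, Crtam and Il2rb were under 20 CPM in CD4. They were compared through their CD8 level alone, which fixed their direction. Nkg7, a protein of cytotoxic granules (chromosome 7, 43437073 to 43438249, plus strand), had 1426 UMIs in CD4 and 22487 in CD8, or 65.5 and 932 CPM, 14.2-fold apart (13.5 to 15.02). It was present in 93.3% of CD8 cells and 6.02% of CD4 cells, or 68.6% and 3.78% of thinned cells. The NK receptor chain Klrd1 (CD94) was at 24.0 and 238 CPM and seen in 63.4% of CD8 cells. The protease Ctsw was at 24.2 and 184 CPM, in 54.4% of CD8 cells. The chemokine Ccl5 was at 175 and 1549 CPM, 8.83-fold apart (8.54 to 9.13), in 52.9% of CD8 and 7.59% of CD4 cells.

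The killing enzymes themselves were found in few CD8 cells. Gzma (granzyme A) was at 0.643 CPM in CD4 and 60.5 in CD8, a 94.0-fold difference (55.8 to 172), yet only 3.59% of CD8 cells had a UMI and the top 1% of cells held 90.9% of its UMIs. Gzmm was at 0.643 and 22.3 CPM, in 5.63% of CD8 cells. Gzmb had 89 UMIs in CD4 and 269 in CD8, Gzmk 91 and 212, and the pore-forming Prf1 29 and 44, all below 20 CPM in both libraries. Eomes, a factor of memory CD8 cells, was at 3.22 and 23.2 CPM, and its relative Tbx21 was at 2.89 and 8.04 CPM. Nkg7, Klrd1, Ctsw and the protease inhibitor Cst7 were thus found in 32.8% to 93.3% of CD8 cells, and the granzymes named here in 1.46% to 5.63%. The NK cell markers Klrb1c and Ncr1, whose cells the NK1.1- gate leaves out, had 22 and 1 UMIs in CD8 and 6 and 1 in CD4. Tyrobp, an adaptor of NK and myeloid cells, had 80 UMIs in CD8 and 353 in CD4.

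**Figure D2:**
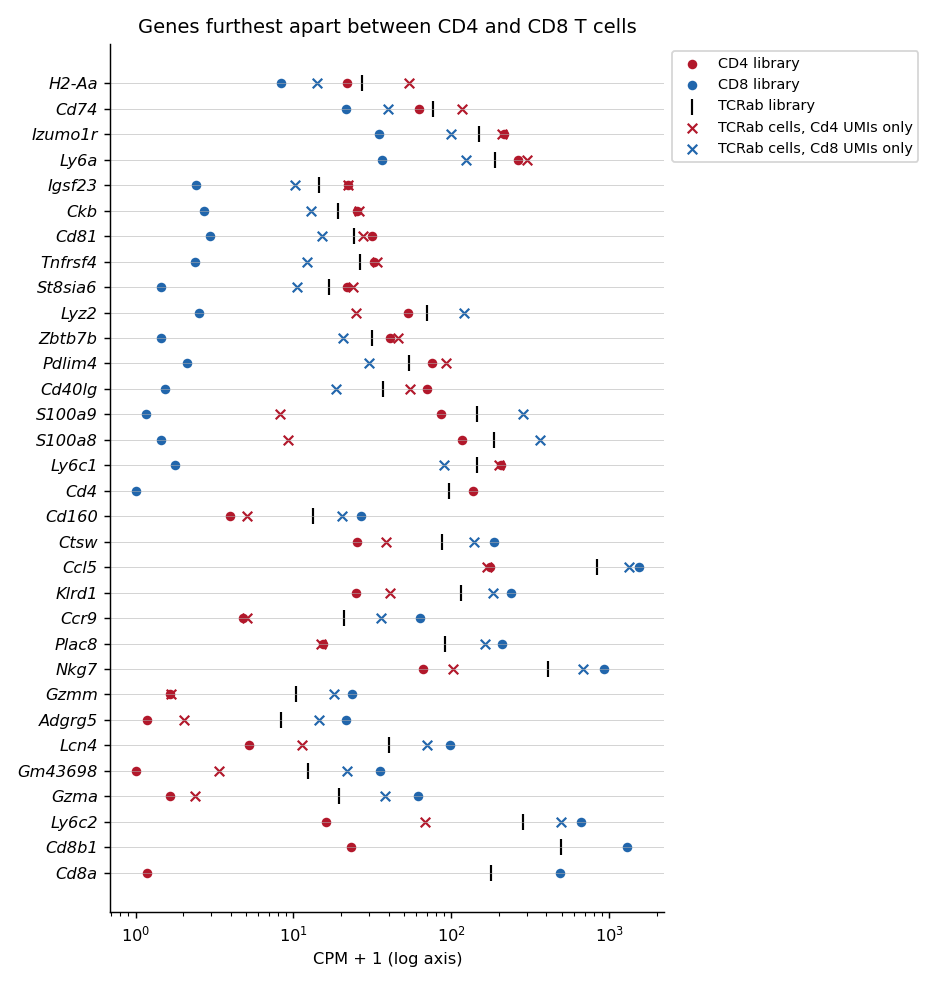
CPM + 1 (x axis, log axis) of the genes named by the fixed rule (y axis) in the CD4 library (red dots), the CD8 library (blue dots), the whole TCRab library (black bars) and the TCRab cells with Cd4 UMIs only or Cd8 UMIs only (red and blue crosses; not drawn for Cd4, Cd8a and Cd8b1, which define those cells). The crosses lie on the side of their library's dots except for S100a8, S100a9 and Lyz2, and the blue crosses of the CD4 genes lie between the dots.

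A pair of neighbouring Ly6 genes marked opposite lineages. Ly6c1 (chromosome 15, 75044018 to 75048830, minus strand) had 4459 UMIs in CD4 and 19 in CD8, or 205 and 0.788 CPM, a 260-fold difference (166 to 432). Ly6c2 (chromosome 15, 75108158 to 75111970, minus strand) had 329 and 15935 UMIs, or 15.1 and 661 CPM, and was 43.7-fold higher in CD8 (39.2 to 48.9). A UMI of Ly6c1 was seen in 41.3% of CD4 and 0.408% of CD8 cells, and one of Ly6c2 in 2.54% and 58.3%. Both encode the Ly6C antigen and are near-identical copies, so how reads were divided between them is uncertain. Counting could have shifted reads from one copy to the other, and the part of this in their levels was not tested. Ly6a (Sca-1), a more distant member, was at 263 CPM in CD4 and 35.6 in CD8, 7.40-fold apart (6.89 to 7.96). Of the 6 members of the Ly6 list compared, 2 were higher in CD4 (33.3%, beside 3.02% apart among all compared genes) and 0 in CD8. The 0 follows from how the lists were drawn, since Ly6c2 stands in the cytotoxic list. Ly6c1 was under 20 CPM in CD8 and was compared through its CD4 level alone, which fixed its direction.

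Promoter sequence was examined for the genes higher in each lineage, since Runx proteins act in the choice between them. The Runx core was searched as TGTGGT or its complement ACCACA, on both strands, in RefSeq promoter windows of GRCm38.p6 that run from 250 bases before to 50 after each start. In all, 18.9% of 27025 genes in the table held it, and 15.6% of the 2976 compared genes with a window. Among genes higher in CD8 it was in 15 of the 41 with a window (36.6%), and among those higher in CD4 in 10 of 44 (22.7%). The 15 included Runx3 itself, Nkg7, Ly6c2, Gzma, Gzmm, Cst7, Cd160, Cxcr6 and Plac8, and the 10 included Zbtb7b and Runx1. The Cd8a window and the other Runx3 window hold none. A match describes these letters only. Cd4, Cd8b1 and Cd40lg were not matched. The 250 bases before the start are shown for Runx3 (the window that holds the core in tandem), Nkg7 and the opposed Ly6c pair, 5′ to 3′ with the core in capitals. The Ly6c1 window holds none.
Runx3 (chr4:135120395-135120644, plus strand): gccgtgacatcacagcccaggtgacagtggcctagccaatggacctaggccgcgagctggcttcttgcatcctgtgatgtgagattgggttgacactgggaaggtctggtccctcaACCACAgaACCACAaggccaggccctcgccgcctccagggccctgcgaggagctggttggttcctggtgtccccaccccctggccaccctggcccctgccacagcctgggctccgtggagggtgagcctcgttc
Nkg7 (chr7:43436888-43437137, plus strand): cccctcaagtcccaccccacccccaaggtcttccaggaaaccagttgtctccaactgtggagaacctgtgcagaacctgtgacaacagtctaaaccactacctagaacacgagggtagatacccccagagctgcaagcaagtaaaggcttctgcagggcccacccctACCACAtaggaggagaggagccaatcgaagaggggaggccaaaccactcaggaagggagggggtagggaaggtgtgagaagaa
Ly6c2 (chr15:75111972-75112221, minus strand): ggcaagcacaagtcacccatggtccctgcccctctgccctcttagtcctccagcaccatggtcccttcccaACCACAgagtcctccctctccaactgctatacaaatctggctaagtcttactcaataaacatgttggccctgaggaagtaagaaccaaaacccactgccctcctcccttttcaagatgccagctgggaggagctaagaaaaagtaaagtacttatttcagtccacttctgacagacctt
Ly6c1 (chr15:75048838-75049087, minus strand): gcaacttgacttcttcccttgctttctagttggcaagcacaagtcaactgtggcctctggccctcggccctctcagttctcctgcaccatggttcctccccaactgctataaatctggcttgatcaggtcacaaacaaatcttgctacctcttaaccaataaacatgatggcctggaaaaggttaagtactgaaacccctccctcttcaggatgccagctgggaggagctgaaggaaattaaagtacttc

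In the naive and memory lists 10% and 21.4% of the compared genes were apart, beside 3.02% of all compared genes. All 20 genes listed for the naive state and lymphoid homing were compared, with 2 higher in CD4, 0 in CD8 and a median log2 ratio of 0.17. Pdlim4, a cytoskeletal adaptor, was at 74.1 CPM in CD4 and 1.12 in CD8, 66.2-fold apart (45.3 to 101), and Igfbp4 at 431 and 146 CPM. The homing receptor gene Ccr7 was at 286 and 197 CPM, and Klf2, a factor of T cell quiescence, at 887 and 838 CPM. Of the memory list, 14 of 20 genes were compared. S100a4 was 5.94-fold higher in CD4 (135 and 22.8 CPM) and S100a6 2.13-fold (148 and 69.3 CPM), while the chemokine receptor Cxcr6 was 6.29-fold higher in CD8 (9.70 and 61.0 CPM). S100a4 was in 11.3% of CD4 cells and Cxcr6 in 23.6% of CD8 cells. Among 9 chemokine receptors, integrins and related genes compared, Ccr9, the gut-homing receptor, was the 1 apart, at 3.77 CPM in CD4 and 62.0 in CD8 (16.4-fold, 13.2 to 20.8). Pdlim4 was compared through its CD4 level alone, and Cxcr6 and Ccr9 through their CD8 level alone, which fixed their direction.

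Of 28 compared genes of T cell receptor signalling, 0 met the limits for apart in either direction, beside 3.02% of all compared genes, and the extremes were Ptpn22, a phosphatase at 47.4 CPM in CD4 and 85.8 in CD8, and Cd247, the ζ chain at 270 and 159 CPM. The 16 compared cytokine receptor and JAK-STAT genes and the 14 of MHC class I presentation also had 0 apart, with H2-Q6 nearest to the limit at 60.1 and 118 CPM. H2-Q6 has near-identical relatives, so its count is uncertain. The medians of these 3 lists were 0.21, 0.09 and 0.09, beside 0.13 over all genes. Of the 82 ribosomal protein genes compared, 0 were apart, with a median of -0.11 and 72 log2 ratios below 0. Ifi27l2a was the 1 interferon response gene apart among 13, at 891 CPM in CD4 and 424 in CD8, and Dusp1 the 1 immediate early gene apart among 15, at 28.6 and 12.9 CPM. In the immediate early list 14 of 15 log2 ratios were above 0 (93.3%), beside 71.6% of all compared genes, and the median was 0.49. These shares hold for scaling by total UMIs. Of the 6 proliferation genes compared, Stmn1 was higher in CD4 at 107 and 53.4 CPM.

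**Figure D3:**
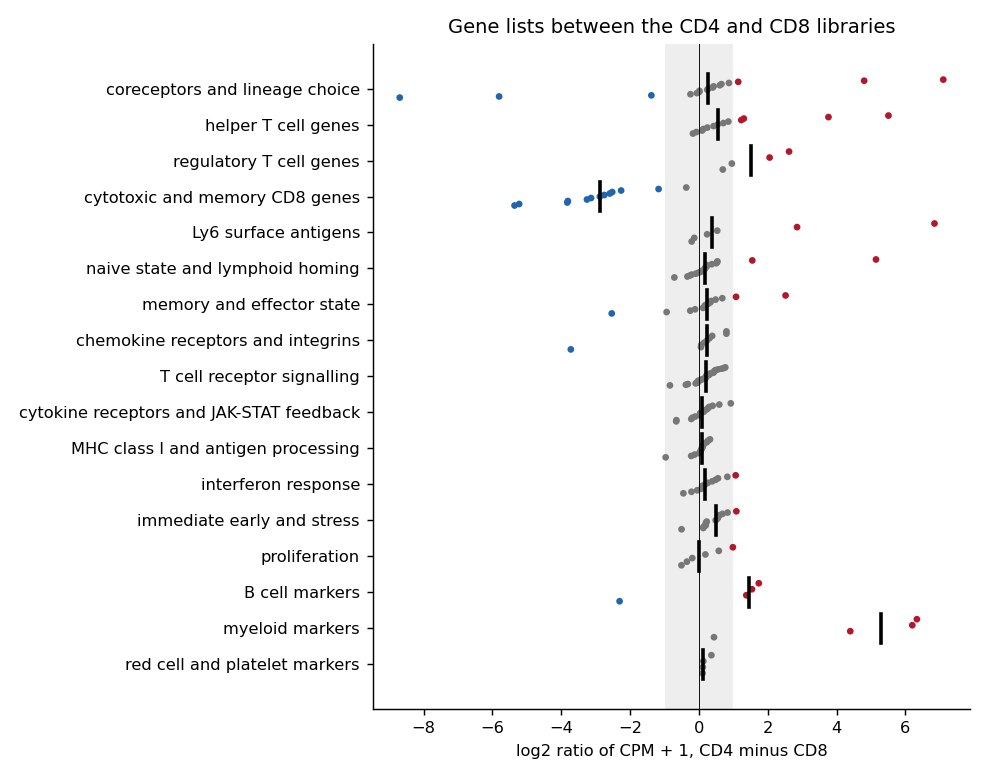
Log2 ratio of CPM + 1, CD4 minus CD8 (x axis), of each compared gene in 17 fixed lists (y axis); points are genes, coloured where 2-fold or more apart (red higher in CD4, blue higher in CD8), black bars are list medians and the grey band spans 1 log2 unit on each side of 0. The cytotoxic list lies to the left with its median at -2.88, and the signalling, cytokine receptor and MHC class I lists lie within the band.

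Further genes apart were outside the fixed lists. The lipocalin gene Lcn4 was at 4.23 CPM in CD4 and 97.7 in CD8, and Plac8 at 14.3 and 207 CPM, in 48.4% of CD8 cells. The adhesion receptor gene Adgrg5 had 4 UMIs in CD4 and 497 in CD8 (112-fold, 43.5 to 413). The long noncoding RNA gene Gm43698 (chromosome 5, 67360387 to 67366599, plus strand) had 0 UMIs in CD4 and 822 in CD8, at least 247-fold higher against the floor of 3 UMIs, with an exact interval that starts at 201. On the CD4 side the sialyltransferase St8sia6 was at 20.7 and 0.456 CPM, Igsf23 at 21.0 and 1.41, the tetraspanin Cd81 at 30.6 and 1.95, and the brain-type creatine kinase Ckb at 24.4 and 1.70. Cd79b, the B cell receptor chain, was higher in CD8 at 3.45 and 21.0 CPM (6.09-fold, 4.77 to 7.86). Cd79a, its partner in B cells, had 16 UMIs in CD4 and 10 in CD8, and Cd79b was spread over 9.65% of CD8 cells with at most 3 UMIs in a cell. Over the genes higher in CD4, the median share of CD4 cells with a UMI was 13.0%, and over those higher in CD8 16.6% of CD8 cells.

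For some of the genes higher in CD4, a few cells held most of the UMIs. Of the 4 myeloid markers compared, 3 were higher in CD4 and 0 in CD8, and of the 4 B cell markers 3 and 1. The shares apart were 75% and 100%, beside 3.02% of all compared genes. S100a8, S100a9, Lyz2, H2-Aa and H2-Ab1 were compared through their CD4 level alone, and Cd79b through its CD8 level alone, which fixed their direction. The 4 red cell markers compared had 0 apart, and the 1 NK cell list gene compared, Il2rb, was higher in CD8 at 19.9 and 46.0 CPM. S100a8 and S100a9, which neutrophils carry in large amounts, were at 117 and 84.8 CPM in CD4 and 0.456 and 0.166 CPM in CD8, but 3 cells held 2319 of the 2536 S100a8 UMIs. The macrophage lysozyme Lyz2 was at 52.5 and 1.53 CPM, with 672 of 1142 UMIs in 3 cells. Cells with 10 or more UMIs of these 3 genes numbered 10 in CD4, 1 in CD8 and 8 in TCRab, and held 90.9% of the marker UMIs in CD4. The MHC class II genes Cd74, H2-Aa and H2-Ab1 were at 61.2, 20.7 and 21.9 CPM in CD4 against 20.4, 7.34 and 5.85 CPM in CD8, with 833 of 1332 Cd74 UMIs in 3 cells. In a setting added after the data were seen, cells rich in myeloid, red cell or B cell UMIs were left out, which removed 25 CD4 and 15 CD8 cells. S100a8, S100a9, Lyz2, H2-Aa and H2-Ab1 then no longer met the limits, each being under 20 CPM in both libraries, and the other 51 of the 56 genes were still higher in CD4. S100a8 stood at 10.0 CPM in CD4. H2-Aa, at 17.8 and 4.16 CPM, and H2-Ab1, at 19.7 and 3.08 CPM, were still 4.28-fold and 6.402-fold higher in CD4. On the CD8 side 58 of 59 were still higher without them.

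The lineage genes were also apart among cells with no UMI of 12 listed genes of regulatory, effector or memory cells. Cells with a UMI of any of the 12 (among them Foxp3, Tnfrsf4, S100a4, Ccl5, Cxcr6 and Gzma) were left out, which kept 2481 CD4 and 1391 CD8 cells. Nkg7 was then at 6.82 CPM in CD4 and 766 in CD8, wider apart than in all cells, and Ly6c2 was at 5.83 and 365 CPM. Before this choice of cells, the top 1% of CD4 cells held 61.6% of the Nkg7 UMIs of that library. How far leaving out cells by effector genes set the wider gap was not tested. Klrd1 stood at 26.8 and 225 CPM and Ctsw at 19.8 and 151 CPM. On the CD4 side, Ly6c1 was at 266 and 0.468 CPM, Cd40lg at 72.8 and 0.312, and Zbtb7b at 39.4 and 0.156. Of the genes apart in all cells, 41 of 56 and 45 of 59 still met the limits. Of the 15 lost on the CD4 side, 3 were used for the choice of cells (Izumo1r, S100a4, Tnfrsf4), and the other 12 included Ifi27l2a and Dusp1. Of the 14 lost on the CD8 side, 3 were used for it (Ccl5, Cxcr6, Gzma), and the other 11 included Eomes, Gzmm, Cd160 and Crtam. Cd74 was at 8.30 CPM in CD4 and 16.2 in CD8 in these cells, the reverse of its order in all cells.

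The TCRab library holds both lineages in 1 preparation. Its cells were divided by their own coreceptor UMIs: 710 cells had Cd4 and no Cd8a or Cd8b1 (Cd4 class), 1849 had Cd8a or Cd8b1 and no Cd4 (Cd8 class), 594 had both and 1141 neither. Cd4, Cd8a and Cd8b1 chose the classes and were left out of what follows. Cells of 1 library are not replicates, so this comparison also has no test. Of 4020 genes compared, 26 (0.647%) were higher in the Cd4 class and 47 (1.17%) in the Cd8 class, 1.82% in all, by the same limits. Of the 55 other genes higher in the CD4 library, 52 had the same sign between the classes, and 17 were 2-fold apart the same way. Of the 57 higher in the CD8 library, all 57 had the same sign and 30 were 2-fold apart the same way. Only 42 of these 57, and 54 of the 55, reached 20 CPM in a class and could be counted as apart. Gzmm, for example, was at 0.685 CPM in the Cd4 class and 17.1 in the Cd8 class and was not compared. Among compared genes that were not apart between the libraries, 75.9% had the same sign. The 47 shared genes made up 42.0% of the 112 apart between the libraries and 64.4% of the 73 apart between the classes. Of the 112, 96 were compared between the classes.

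Nkg7 was at 101 CPM in the Cd4 class and 685 in the Cd8 class (6.75-fold, 6.01 to 7.62), Ccl5 at 168 and 1325, Plac8 at 14.04 and 161, and Ly6c2 at 66.8 and 491. On the CD4 side Cd40lg was at 53.4 and 17.6 CPM (3.03-fold, 2.40 to 3.82), Zbtb7b at 45.2 and 19.5 (2.31-fold, 1.83 to 2.93) and Ly6c1 at 199 and 88.4. The classes thus differed less than the libraries, above all through CD4 genes in the Cd8 class: Ly6c1 was at 0.788 CPM in the CD8 library and 88.4 CPM there. S100a8 was at 8.22 and 365 CPM, S100a9 at 7.19 and 284, and Lyz2 at 24.0 and 120, each the reverse of the libraries. In TCRab 1 cell held 3024 of the 3395 S100a8 UMIs.

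The Cd8 class differed in its other genes with the number of Cd8 UMIs in a cell. Among TCRab cells with no Cd4 UMI, 598 had 1 Cd8a or Cd8b1 UMI, 182 had 2, 141 had 3 or 4, 360 had 5 to 8 and 568 had 9 or more. Zbtb7b was at 38.1 CPM in the 1141 cells with 0, at 44.9 with 1, 34.8 with 2, 17.0 with 3 or 4, 4.06 with 5 to 8 and 6.15 with 9 or more. Nkg7 went from 145 CPM with 0 to 171, 284, 709, 936 and 1018 CPM in the same order, and Ly6c1 from 205 to 202, 167, 69.8, 29.0 and 21.7 CPM. Runx3 was at 31.7, 36.2, 38.8, 63.0, 77.1 and 65.7 CPM. In the CD4 and CD8 libraries Zbtb7b was at 39.7 and 0.456 CPM, Nkg7 at 65.5 and 932, and Ly6c1 at 205 and 0.788 CPM. Cells with 5 or more Cd8 UMIs thus still had more Zbtb7b and Ly6c1 than the CD8 library, and cells with 1 had more Nkg7 than the CD4 library. Of the 1304 TCRab cells with a Cd4 UMI, 45.6% also had a Cd8 UMI, against 8.41% of the 2141 such cells of the CD4 library. Free RNA and doublets as sources of these UMIs were not tested. In the CD4 library 422 cells had a Cd8 UMI, 7 had 3 or more and 0 of 5035 had 5 or more, which allows a share of up to 0.0596% (3 counts of the total; the exact interval ends at 0.0732%).

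**Figure D4:**
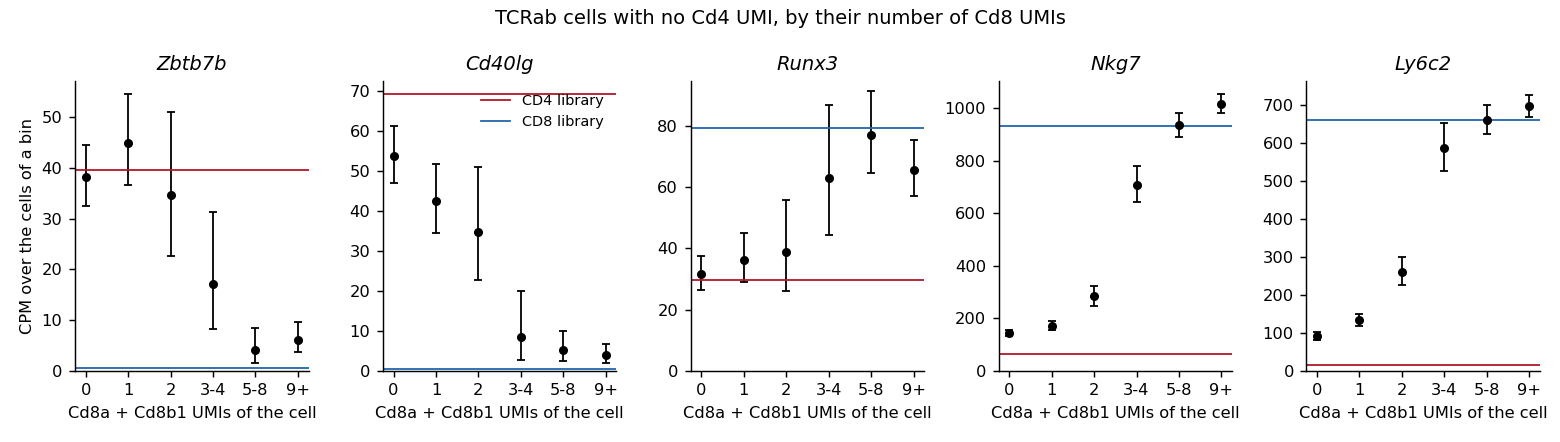
CPM (y axis, linear) of 5 genes in TCRab cells with no Cd4 UMI, summed over cells with 0, 1, 2, 3 to 4, 5 to 8 and 9 or more Cd8a and Cd8b1 UMIs (x axis); bars are exact 95% Poisson intervals of the UMI count, and lines give the CD4 (red) and CD8 (blue) libraries. Zbtb7b and Cd40lg are high with 0 to 2 Cd8 UMIs and low with 5 or more, and Nkg7 and Ly6c2 the reverse.

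A stricter Cd8 class, of the 928 cells with 5 or more Cd8 UMIs and no Cd4 UMI, was added after the data were seen. Between the Cd4 class and these cells, 64 of 4032 genes (1.59%) were higher in the Cd4 class and 54 (1.34%) in the Cd8 class. Of the genes apart between the libraries, 38 of 55 were then 2-fold higher in the Cd4 class and 45 of 57 in the Cd8 class. Genes under 20 CPM in both classes were again not compared, such as Crtam at 5.14 and 19.9 CPM. Zbtb7b was at 5.40 CPM in the stricter class, 8.38-fold below the Cd4 class, Ly6c1 at 24.3 CPM (8.19-fold) and Cd40lg at 4.36 CPM (12.3-fold). Nkg7 reached 989 CPM and Ly6c2 685 CPM. S100a8 and S100a9 stood at 5.40 and 9.14 CPM, the cell rich in them being outside the class.

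**Figure D5:**
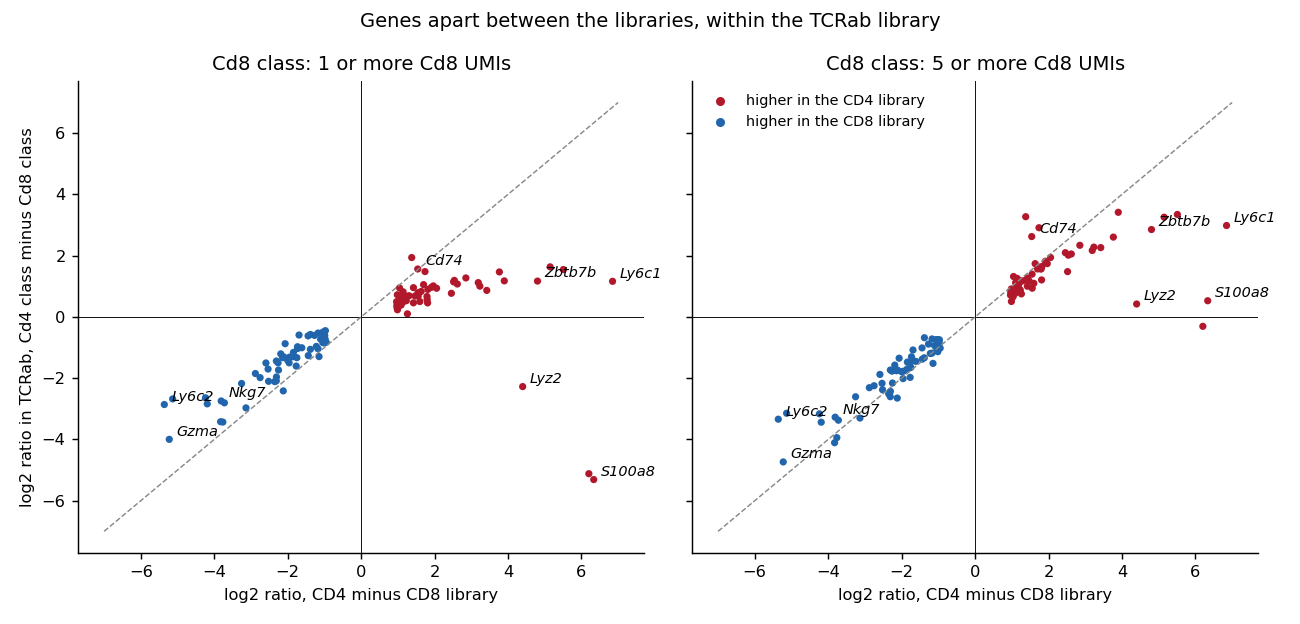
Log2 ratio (CPM + 1) within the TCRab library, Cd4 class minus Cd8 class (y axis), against the log2 ratio of the CD4 minus the CD8 library (x axis) for the 112 genes apart between the libraries, with the Cd8 class set at 1 or more Cd8 UMIs (left) or 5 or more (right); red genes are higher in the CD4 library, blue ones in the CD8 library, and the dashed line marks equal ratios. The red points lie closer to the dashed line on the right, and S100a8 and Lyz2 change side.

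The level of the whole TCRab library lay between the CD4 and CD8 libraries for all 57 genes higher in CD8 and for 49 of the 55 higher in CD4, against 37.5% of compared genes that were not apart. Runx3, for example, was at 29.7, 43.9 and 79.1 CPM in CD4, TCRab and CD8. Those outside included S100a8, S100a9, Lyz2, Cd74 and H2-Aa, each higher in TCRab than in either sorted library. Genes chosen as 2-fold apart leave a wider range to lie within than genes not apart. The contrast with 37.5% is thus partly set by that choice and is no check on the differences. Placed on the line from the CD4 level (0%) to the CD8 level (100%), the TCRab level stood at a median of 39.6% for the genes higher in CD8 and 24.0% for those higher in CD4. By cells, 27.5% of TCRab cells had 3 or more Cd8 UMIs, against 95.4% of CD8 and 0.139% of CD4 cells. These positions mix shares of cells with RNA per cell, which cannot be told apart in summed UMIs. The gap between the 2 medians is a separate matter, and its cause was not tested.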

How the data were processed

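The deposited matrices hold UMI counts per gene and cell barcode, without normalization by the authors in the files used here. Per the submitters' processing notes, Cell Ranger 2.1.0 and 3.0.1 and the mm10 (GRCm38) build were used in the series; which version made which matrix is not given in the sources used here. The CD4, CD8 and TCRab libraries share a reference of 27998 genes, which holds no T cell receptor V segments by name, so these were not analysed here.

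UMIs of kept cells (200 or more genes, at most 10% mitochondrial) were summed per library or class and divided by their total (CPM). Totals ran from 18373324 to 24115584 UMIs, at which a count of 3 UMIs corresponds to 0.124 to 0.163 CPM. Ratios have exact conditional 95% Poisson intervals and shares exact (Clopper-Pearson) 95% intervals; both cover counting error only. Log2 ratios used CPM + 1. Thinning drew 1500 UMIs per cell and left out 37 CD4, 10 CD8 and 35 TCRab cells. No doublet caller was run.

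Genes named in the text are the 15 in each direction with the largest fold by the interval bound nearest to 1, the 3 coreceptor genes, members of the fixed lists, and up to 5 genes each that went another way between the TCRab classes or lay outside the 2 libraries in TCRab. Lcn4 to Ckb and Cd79b fall under these rules. The groups, limits and lists were chosen with earlier results of these data known. Alternatives covered the CPM minimum, the fold, cell filters, scaling, thinning and class rules. The ratio and interval code was tested on simulated counts. Gene positions are from GENCODE vM21 on GRCm38, where 336 of 336 IDs matched, and promoter sequence is from RefSeq. The tools were pandas 2.3.3, SciPy 1.17.1, NumPy 2.4.6 and matplotlib 3.10.9 under Python 3.11.15.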

Additional observations from a re-analysis of the deposited data

Results flagged for a closer look

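S100a8, S100a9 and Lyz2 were higher in the CD4 than in the CD8 library, and within TCRab they were lower in the Cd4 class than in the Cd8 class, with log2 ratios of -5.31, -5.12 and -2.27. The 2 comparisons thus went opposite ways, and the difference between them was not tested. In both cases a few cells held most of the UMIs.

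Cd8b1 was counted in the naive double-negative libraries, which were sorted as CD8-, with 263 UMIs in replicate 1 and 279 in replicate 2, above the limit of 3 UMIs that a count of 0 allows.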

How the results depend on the processing

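Counts of genes apart moved with the limits. In the order higher in CD4, higher in CD8, higher in the TCRab Cd4 class, higher in its Cd8 class and apart the same way in both, they were 56, 59, 26, 47 and 47. With 10 CPM as minimum they were 109, 90, 49, 71 and 79, with 50 CPM 26, 25, 10, 24 and 25, with a 1.5-fold limit 211, 112, 103, 75 and 101, and with a 4-fold limit 21, 31, 1, 23 and 12. Totals without ribosomal protein and mitochondrial genes gave 97, 118, 40, 81 and 85. Leaving out cells with a UMI of the 12 genes of activated or regulatory cells left 31 genes apart the same way. Leaving out cells over 2 times the median UMIs left 14 higher in the Cd4 class. With 2 coreceptor UMIs for a class, 156 genes were higher in the Cd4 class, then only 172 cells, and 75 apart the same way. With 5 Cd8 UMIs for the Cd8 class these were 64 and 83.

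The other counts stayed within 1.5 times. Of the log2 ratios of the 32 genes named by rule, 446 values under alternatives moved by less than their counting interval, 111 by more, and 13 turned their sign, for S100a8, Lyz2, Cd74 and H2-Aa. Between the TCRab classes S100a8 turned to 0.77 without the cells of those 12 genes, 0.35 without cells of many UMIs, 0.27 without marker-rich cells and 0.53 with 5 Cd8 UMIs, and Lyz2 to 0.029 and 0.42 in the last 2 settings. Without the cells of those 12 genes, Cd74 turned to -0.89 between the libraries and -1.66 between the classes, and H2-Aa to -1.56 and -2.74. H2-Aa was at -0.39 between the libraries without cells of many UMIs. With 2 coreceptor UMIs Cd74 was at -0.80 and H2-Aa at -1.12 between the classes. The cause of these changes was not tested. The 2 settings on marker-rich cells and 5 Cd8 UMIs were chosen after seeing the data. No paired analysis was possible because each group has 1 library.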
